A study of Mus musculus with 21 samples.

Results

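The arrays compared here are the vehicle arrays of a study of mouse intestinal organoids, 7 of 21 arrays in all. They were chosen by title and carry the letters A to G. Letters A, B and C (n = 3) were set against letters D, E, F and G (n = 4), which bear the same treatment label, and the counts over all genes, the list counts and most single differences are given with and without letter F. Organoids are epithelial cultures, here grown in Matrigel from crypts of mouse small intestine in medium with epidermal growth factor, Noggin and R-spondin 1. The mice were derived from KH2 embryonic stem cells, through chimeras crossed with C57/BL6-J, and carried a tet-O cassette for human myc-tagged ΔN89β-catenin and the transactivator M2-rtTA under the endogenous ROSA26 promoter. Truncated beta-catenin is thus made while doxycycline is in the medium, as it was in all 7 vehicle cultures, and no array came from a mouse or culture without the cassette. The other 14 arrays held compound 2 and compound 9 (letters A to C, 3 arrays each), compound 6 (letters D to G, 4 arrays), all at 2 µM for 24 h with doxycycline, and cultures from which doxycycline had been withdrawn for 24 h (letters D to G, 4 arrays). The labels do not say what the letters stand for, nor whether arrays came from separate mice or cultures, so the p-values measure only the spread between these samples.

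The villus and crypt epithelium of the small intestine is renewed by Lgr5-bearing stem cells that divide under Wnt and beta-catenin signalling and give rise to absorptive enterocytes and to secretory goblet, Paneth, tuft and enteroendocrine cells. Enteroendocrine cells release hormones into the blood, and which hormones they make depends on the stretch of gut they lie in. Enterocytes also differ by region: those of the duodenum take up iron and calcium, and those of the ileum recover bile acids.

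Each array carried sample RNA labelled with Cy3 and Universal Mouse Reference RNA labelled with Cy5, without dye swaps, and values are log2 ratios of sample over reference unless another scale is named. All arrays with letters A to C were scanned on 1 day with 1 scanner and all with letters D to G on another day with another scanner. Vehicles A and B lay on 1 slide and C on a second, while D and F, E, and G lay on 3 other slides, so no slide held vehicles of both sets. Culture set, scan day, scanner and slide can therefore not be told apart in any difference reported below. The common reference was scanned on the same day as each sample and offsets the part of a scan effect that both channels share. In the sample channel 49.5% to 51.3% of spots were well above background on vehicles A to C and 44.8% to 46.3% on vehicles D to G. The epithelial markers Epcam, Cdh1, Vil1 and Cdx2 lay far above the reference in both sets, with means of 3.62, 6.28, 5.74 and 6.36 in A to C and of 4.00, 6.01, 6.36 and 6.34 in D to G.

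Of 19875 genes tested with limma, 9513 (47.9%) differed between the vehicle sets at a Benjamini-Hochberg adjusted p under 0.05, 5098 of them (25.7%) higher and 4415 (22.2%) lower in D to G. Without letter F the count was 11682 (58.8%), with 6334 higher (31.9%) and 5348 lower (26.9%). Of the genes called with F, 9460 were also called without it, all in the same direction, and 53 were not, while 2222 were called only without F. The sets did not overlap in 10243 genes (51.5%). Most differences were small, with a median size of 0.311 log2 over all genes. At 2-fold or more, 1590 genes were higher (8.0%) and 780 lower (3.92%), and without F 1937 (9.75%) and 901 (4.53%). At 8-fold or more the counts were 31 and 11, and without F 48 and 18.

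The largest difference was that of Tac1, higher in D to G. Tac1, which encodes the precursor of substance P, lay at -0.37, -0.34 and -0.38 on vehicles A, B and C and at 6.73, 6.95, 6.95 and 6.91 on D, E, F and G. F was thus level with its set, and the sets lay far apart. The difference was 7.25 ± 0.09 (SE; limma adjusted p = 7.12e-09), and 7.23 without F (adjusted p = 4.72e-09). The Tac1 probe (mm9, chr6:7512893-7512952) was not well above background on any A to C array, so the change of its sample signal is stated as a bound, at least 109-fold. Such bounds set the mean Cy3 signal of the bright set against the higher of the dim probe's own signal and the lowest signal among probes well above background. They were computed with Cy3 scaled by loess and Aquantile (149-fold for Tac1) and by quantiles (109-fold), the lower is printed, and with no dye swaps they are open to dye bias.

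Other hormone and endocrine genes were higher in D to G too. Gip, the glucose-dependent insulinotropic peptide of duodenal K cells, lay at 0.02, 0.24 and 0.23 on A to C and at 5.2, 5.02, 5.23 and 5.18 on D to G. It was not well above background on A to C, and its Cy3 signal was at least 147-fold higher in D to G (ratio difference 4.99, adjusted p = 1.6e-07, and 4.97, adjusted p = 6.88e-08, without F). Cck, the cholecystokinin gene, lay at 0.57, -0.01 and 0.49 against 5.25, 5.19, 5.22 and 5.22. All 4 arrays of D to G lay close together here, and the difference was 4.87 ± 0.14 (adjusted p = 1.24e-06; also 4.87 without F). Chga, which encodes the granule protein chromogranin A, lay at 1.11, 0.62 and 0.90 against 5.22, 5.29, 5.28 and 5.29, a difference of 4.39 with and without F. Tph1, the serotonin-synthesis enzyme of enterochromaffin cells, lay at 0.00, -0.02 and -0.24 against 4.44, 4.48, 4.72 and 4.28, at least 23.5-fold higher in Cy3. Nkx6-3, a homeobox transcription factor outside the endocrine list, lay between -0.05 and 0.15 on A to C and at 4.45, 4.53, 5.77 and 4.68 on D to G, with F the highest of its set (difference 4.79, and 4.49 without F; at least 31.3-fold in Cy3). Its other probe differed by 1.93.

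Of 28 enteroendocrine genes listed, 24 could be measured, of which 20 were higher and 1 lower in D to G (all genes 25.7% and 22.2%), and the counts were the same without F. Their median difference was 1.86, against 0.01 over all genes. For 10 of the 24 no A to C array was well above background, so these had entered the test through D to G alone. Of the 11 members well above background on all 7 arrays, 7 were higher and 1 lower, with a median of 1.08. The exception was Neurog3, the transcription factor of endocrine progenitors, named here after its values were seen. Neurog3 lay at 5.86, 4.42 and 6.15 on A to C and at 4.03, 4.29, 3.43 and 4.09 on D to G, so it was lower, with a difference of -1.51 ± 0.40 (adjusted p = 0.0152; -1.34 without F). In bulk RNA, fewer cells of a type and less RNA per cell cannot be told apart.

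**Figure D1:**
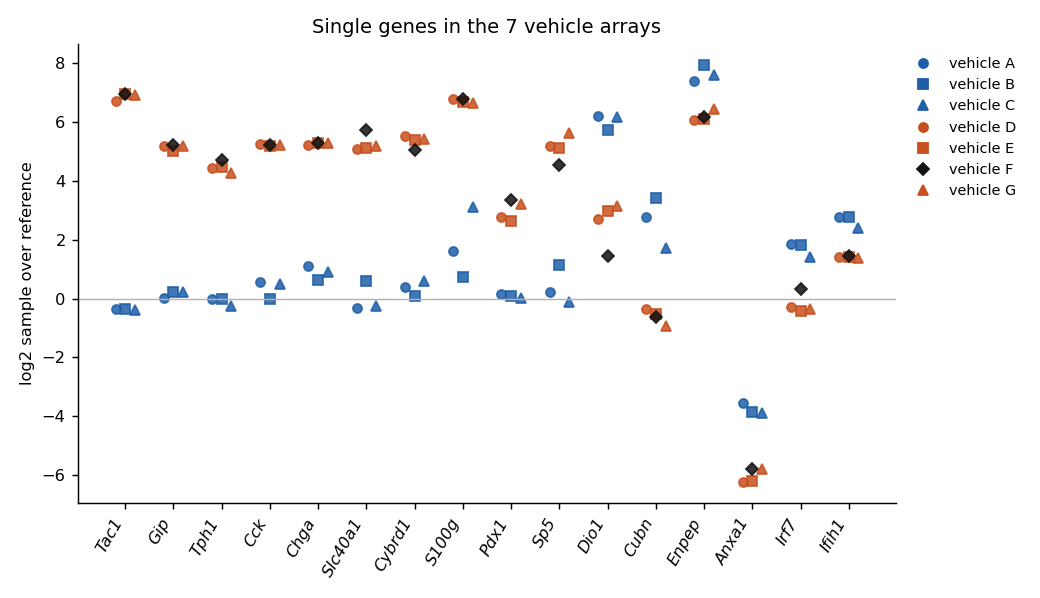
Log2 sample over reference (vertical axis) for 16 genes (horizontal axis) on each vehicle array, with A to C in blue, D, E and G in orange and F as a black diamond. Tac1 sits at -0.38 to -0.34 in A to C and at 6.73 to 6.95 in D to G. For all 16 genes shown, F lies on the same side as D, E and G. Those taken from the largest differences were chosen to have no overlap between the sets.

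Further genes among the 12 with the largest increase were Slc40a1, Cybrd1, S100g, Sp5, Itfg3 (Fam234a in RefSeq) and Pm20d1. Slc40a1, which encodes the iron exporter ferroportin, lay at -0.32, 0.61 and -0.25 on A to C and at 5.08, 5.11, 5.75 and 5.2 on D to G. The difference of 5.27 ± 0.26 (adjusted p = 1.52e-05) was 5.12 without F. Cybrd1, a ferric reductase of the duodenal brush border, lay at 0.38, 0.10 and 0.59 against 5.53, 5.39, 5.06 and 5.42 (5.00, and 5.09 without F; other probe 3.56). S100g, the calcium-binding protein calbindin-D9k, spread widely on A to C, at 1.63, 0.75 and 3.13, and lay at 6.79, 6.70, 6.79 and 6.66 on D to G. Pm20d1, a secreted enzyme that makes N-acyl amino acids, differed by 4.44 (adjusted p = 0.0011) and by 5.07 without F. F lay lowest in its set, and the Cy3 bound was at least 15.6-fold. Pdx1, a transcription factor of the duodenum and pancreas, lay at 0.15, 0.10 and 0.01 against 2.79, 2.64, 3.34 and 3.23 (2.91, and 2.80 without F), at least 5.05-fold higher in Cy3. Sets without overlap were a condition for choosing the 12 genes, so this is no separate result for them. In Pdx1, which was named from its list, the sets did not overlap either.

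Genes known from the distal small intestine were lower in part. Slc10a2, the bile acid transporter of the ileum, named here after its values were seen, lay at 4.97, 4.37 and 4.42 on A to C and at 1.87, 1.90, 1.37 and 2.30 on D to G (difference -2.72 ± 0.23, adjusted p = 0.000153; -2.56 without F). Cubn, the receptor for the intrinsic factor-vitamin B12 complex, lay at 2.78, 3.42 and 1.71 against -0.35, -0.51, -0.64 and -0.94, and was well above background on 1 of the 4 arrays of D to G. The difference was -3.25, and -3.23 without F, and its other probe gave -1.02. Fabp6, the ileal bile acid binding protein, was not well above background on any A to C array, and its difference of 0.38 ± 0.24 did not pass (adjusted p = 0.217; without F 0.55, adjusted p = 0.0294). Of 15 measured genes in the list of proximal and distal markers, 7 were higher and 4 lower (all genes 25.7% and 22.2%), 8 and 5 without F (31.9% and 26.9%), with a median of 0.38, and the median was -0.01 with median centring of the ratios in place of loess. Gata4, a transcription factor of the proximal intestine, differed by 0.22 ± 0.09 (adjusted p = 0.0627; 0.19 without F), and Cdx2, the intestinal homeobox factor, by -0.02 ± 0.09 (adjusted p = 0.861; without F adjusted p = 0.972).

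Among the genes with the largest drop in D to G was Dio1, the type 1 deiodinase that activates thyroid hormone. Dio1 lay at 6.20, 5.75 and 6.16 on A to C and at 2.71, 2.97, 1.46 and 3.15 on D to G, with F the lowest (difference -3.46 ± 0.38, adjusted p = 0.000452; -3.09 without F). The other probes of Dio1 gave -2.82 to -1.88. R3hdml, Nfe2 and Mst1 fell by 3.31, 3.43 and 3.03 log2 (-3.17, -3.28 and -3.02 without F), and F lay with its set or below it. Vmn1r65 fell by 3.66 and, like Mst1, was well above background on 1 array of D to G. Hpn, which encodes the membrane protease hepsin, was well above background on all of A to C and on none of D to G, at least 4.05-fold lower in Cy3. Ly6g6e, Clca6 (Clca4a in RefSeq), Gml and Ly6f fell by 3.85, 3.26, 3.23 and 2.98, and F lay nearest to A to C in its set for all 4. Of these, Ly6f was well above background on only 2 arrays of D to G. Ly6 and Clca genes have close relatives whose RNA a probe may also bind, so these values are uncertain as to the gene.

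Proliferation genes were higher on D, E and G and much less so on F. Mki67, the marker of cycling cells, lay at -6.75, -6.61 and -6.76 on A to C, at -2.0, -2.18 and -2.14 on D, E and G, and at -5.45 on F. D, E and G thus lay close together, and F lay nearer to A to C. The difference was 3.76 ± 0.78 with F (adjusted p = 0.00581) and 4.6 ± 0.09 without it (adjusted p = 6.88e-08). Rrm2, a subunit of ribonucleotide reductase, lay between -5.84 and -5.38 on A to C, at -1.70, -1.64 and -1.83 on D, E and G and at -4.95 on F. Uhrf1, which guides maintenance of DNA methylation, lay at -5.97, -5.75 and -6.08 on A to C, at -1.82, -1.64 and -1.94 on D, E and G and at -4.93 on F. Ccnb1 (cyclin B1) and Mcm4 (a subunit of the replicative helicase) on F lay at -4.34 and -4.46, next to the -4.75 to -4.50 and -4.79 to -4.29 of A to C and not to the -2.38 to -2.06 and -2.37 to -2.29 of D, E and G.

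Of 29 measured DNA replication genes, 22 were higher and none lower in D to G with F, and 28 were higher without F. Their median difference was 1.25 with F and 1.53 without it. By array the list median was -3.10, -3.10 and -3.04 on A to C, -1.70, -1.56 and -1.57 on D, E and G, and -2.99 on F. Of 28 mitosis genes, 23 were higher with F and 28 without it, none lower, with medians of 1.47 and 1.81. Their median on F was -3.63, against -3.71 to -3.70 on A to C and -1.79 to -1.64 on D, E and G. The background for these counts is 25.7% of all genes higher with F and 31.9% without it. For 1 of the replication and 3 of the mitosis genes no A to C array was well above background, so these entered the test through D to G alone. Of the 27 replication and 23 mitosis genes well above background on all 7 arrays, 20 and 18 were higher with F and none lower. Among all genes above background on all 7 arrays 27.3% were higher. Cdkn1c, an inhibitor of the cell cycle, was also higher in D to G, by 2.23 ± 0.18 (adjusted p = 0.000135; 2.18 without F), and Cdkn2b was lower, at -1.38 ± 0.22 (adjusted p = 0.00195; -1.60 without F). Cdkn1a did not pass with F (-0.42, adjusted p = 0.0515) and passed without it (-0.52, adjusted p = 0.00597).

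**Figure D2:**
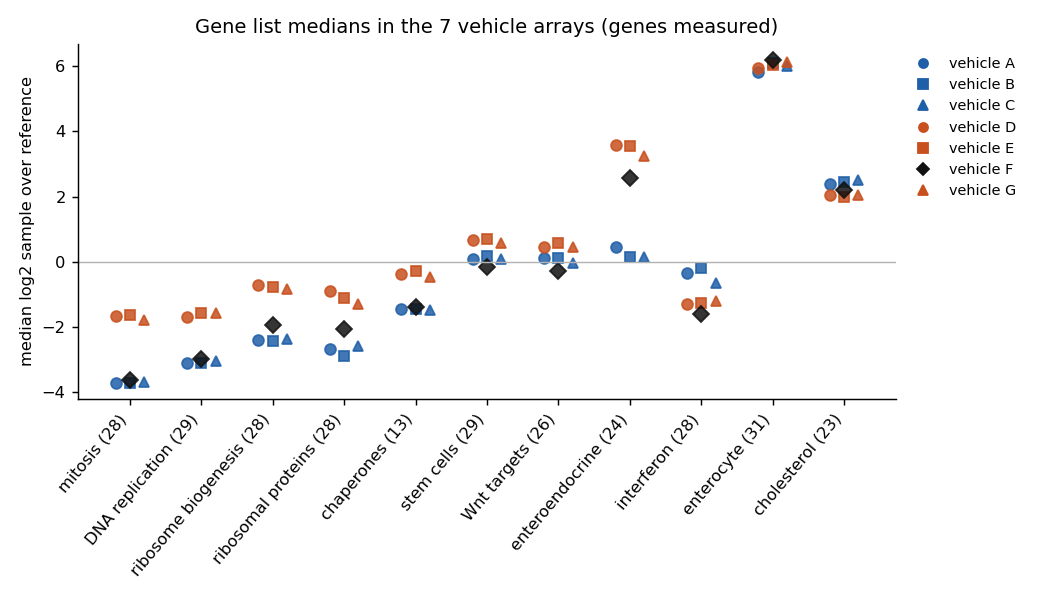
Median log2 sample over reference (vertical axis) of 11 gene lists, with the number of genes measured in brackets, on each vehicle array (A to C blue, D, E and G orange, F black). F sits with A to C for mitosis (-3.63) and DNA replication (-2.99) and with D, E and G for the interferon list (-1.59).

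Because replication, mitosis and interferon genes each moved together, the 250 bases before the start site of their members were searched for motifs known from such promoters (RefSeq sequences, build GRCm38.p6, both strands). The E2F motif was taken as TTTCCCGC, TTTCGCGC, TTTGCCGC or TTTGGCGC, and 8 of 29 windows of the 24 replication genes with an entry held it (27.6%), against 1.86% of all 32851 windows. The cell cycle homology region, TTTGAA, was in 8 of 25 windows of 24 mitosis genes (32%), against 16% of all. The CCAAT box was in 20 of these 25 windows (80%), against 33.8% of all. The interferon-stimulated response element, taken as GAAA and GAAA with any 2 bases between, was in 12 of 23 windows of 22 interferon genes (52.2%), against 2.98% of all. These shares describe the letters only. Shown are passing genes that hold the E2F motif, the cell cycle homology region (CHR) or the interferon-stimulated response element (ISRE), with the motif in capitals. They have the smallest adjusted p among the promoters considered, which did not cover every chromosome. No promoter is shown for the CCAAT box.
Cdc6, E2F, chr11:98907901-98908150 (+ strand): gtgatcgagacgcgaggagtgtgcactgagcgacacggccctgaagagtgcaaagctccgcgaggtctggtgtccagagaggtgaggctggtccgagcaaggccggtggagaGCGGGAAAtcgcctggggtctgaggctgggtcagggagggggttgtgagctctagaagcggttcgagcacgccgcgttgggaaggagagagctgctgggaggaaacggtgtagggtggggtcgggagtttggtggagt
Uhrf1, E2F, chr17:56304063-56304312 (+ strand): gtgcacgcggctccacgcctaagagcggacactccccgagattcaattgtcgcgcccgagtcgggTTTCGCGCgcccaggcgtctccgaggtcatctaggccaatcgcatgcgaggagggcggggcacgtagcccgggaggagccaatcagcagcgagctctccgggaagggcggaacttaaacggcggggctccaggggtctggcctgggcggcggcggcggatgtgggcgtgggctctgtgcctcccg
Mki67, CHR, chr7:135716380-135716629 (- strand): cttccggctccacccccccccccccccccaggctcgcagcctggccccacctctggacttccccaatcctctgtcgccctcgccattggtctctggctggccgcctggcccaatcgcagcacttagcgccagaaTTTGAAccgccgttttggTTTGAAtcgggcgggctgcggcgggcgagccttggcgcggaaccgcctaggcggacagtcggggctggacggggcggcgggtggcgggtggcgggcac
Kif11, CHR, chr19:37376132-37376381 (+ strand): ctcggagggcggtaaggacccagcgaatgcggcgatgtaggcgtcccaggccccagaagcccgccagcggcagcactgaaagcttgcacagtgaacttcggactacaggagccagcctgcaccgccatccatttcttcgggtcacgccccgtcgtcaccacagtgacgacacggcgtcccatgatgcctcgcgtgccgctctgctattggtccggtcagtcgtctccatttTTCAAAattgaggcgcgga
Irgm1, ISRE, chr11:48871421-48871670 (- strand): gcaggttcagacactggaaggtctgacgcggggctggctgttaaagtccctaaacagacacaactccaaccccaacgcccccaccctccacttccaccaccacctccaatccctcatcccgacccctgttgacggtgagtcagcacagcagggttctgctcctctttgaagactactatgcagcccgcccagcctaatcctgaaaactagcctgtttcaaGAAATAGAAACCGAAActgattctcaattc
Rsad2, ISRE, chr12:26456453-26456702 (- strand): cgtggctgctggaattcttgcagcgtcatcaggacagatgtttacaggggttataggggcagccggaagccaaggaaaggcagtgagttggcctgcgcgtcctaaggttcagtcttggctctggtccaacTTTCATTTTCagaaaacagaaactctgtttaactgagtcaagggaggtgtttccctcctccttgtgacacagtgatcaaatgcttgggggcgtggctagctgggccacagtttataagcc

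Cdc6, which loads the replicative helicase, lay at -2.75, -2.65 and -2.71 on A to C, at -1.13, -1.21 and -1.18 on D, E and G and at -1.99 on F. It was not well above background on any A to C array and was at least 1.75-fold higher in Cy3 in D to G (ratio adjusted p = 0.00177). Kif11, a spindle motor well above background on 1 array of A to C and 3 of D to G, differed by 1.47 ± 0.35 with F (adjusted p = 0.0103) and by 1.83 ± 0.11 without it. The replication and mitosis promoters shown thus belong to genes in which F fell short of D, E and G, and the interferon promoters to genes that were lower in D to G (Irgm1 at -1.80 ± 0.23, Rsad2 at -1.64 ± 0.23).

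Growth genes followed proliferation in part. Myc, a direct target of beta-catenin and a driver of ribosome production, lay at -3.01, -2.52 and -2.86 on A to C, at -0.90, -0.72 and -0.97 on D, E and G and at -2.12 on F. The difference was 1.62 ± 0.32 (adjusted p = 0.00468) and 1.94 without F. Over all genes 25.7% were higher and 22.2% lower with F, 31.9% and 26.9% without it. Of 28 genes of ribosome biogenesis, 23 were higher and 1 lower with F, 26 and 1 without it, with a median of 1.30. The list median was -2.42 to -2.37 on A to C, -0.82 to -0.72 on D, E and G and -1.95 on F, so F lay between the sets but nearer to A to C. Of 28 ribosomal protein genes, 27 were higher and none lower with F, 28 and none without it, with a median of 1.39 (1.68 without F), which was 0.57 in Cy3 alone and 0.42 with median centring. Many ribosomal protein genes have processed pseudogenes, and probes may read these too. The mitochondrial chaperones Hspd1 and Hspe1 were higher by 2.26 ± 0.39 and 2.18 ± 0.31 (adjusted p = 0.00266 and 0.00131), and on F they lay at -1.80 and -1.35, against -0.27 to -0.10 and -0.22 to -0.06 on D, E and G.

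Some stem cell genes were higher on D, E and G and hardly so on F. Lgr5, the receptor for R-spondins that marks intestinal stem cells, lay at 0.64, 0.23 and 0.69 on A to C, at 4.24, 4.16 and 3.71 on D, E and G and at 1.00 on F. With F the difference was 2.76 ± 0.73 (adjusted p = 0.0152) and without it 3.52 ± 0.17 (adjusted p = 1.69e-06). Ascl2, a transcription factor of stem cells, lay at 3.13, 3.35 and 3.41 on A to C, at 4.49, 4.37 and 4.44 on D, E and G and at 3.29 on F, inside the range of A to C. Sp5, a direct Wnt target, behaved unlike these: it lay at 0.23, 1.13 and -0.11 on A to C and at 5.2, 5.12, 4.55 and 5.63 on D to G, F included. Axin2, a feedback inhibitor often used as a Wnt readout, lay at 0.75, 1.10 and 0.51 against 0.84, 1.15, 0.24 and 0.99, and the sets overlapped (difference 0.02 ± 0.23, adjusted p = 0.947). Of 29 stem cell genes 9 were higher and 1 lower with F, 19 and 1 without it. Of 26 Wnt targets 13 were higher and 2 lower with F, 17 and 3 without it. Over all genes 25.7% were higher with F and 31.9% without it, so the stem cell count with F is near that share. The probe for mouse Ctnnb1 differed by 0.07 ± 0.08 (adjusted p = 0.49); whether it reads the human transgene was not tested. None of the 6 measured genes of the Mediator kinase module passed, with Cdk8 at -0.06 ± 0.09 (adjusted p = 0.6) and Cdk19 at -0.16 ± 0.09 (adjusted p = 0.197).

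Interferon-stimulated genes were lower in D to G. Irf7, a transcription factor of the interferon response, lay at 1.84, 1.81 and 1.41 on A to C and at -0.27, -0.42, 0.33 and -0.35 on D to G (difference -1.86 ± 0.20, adjusted p = 0.000409; -2.03 without F). Ifih1, a sensor of viral RNA, lay at 2.79, 2.79 and 2.41 against 1.43, 1.41, 1.44 and 1.38, with D to G close together. Ddx58, the sensor RIG-I, lay at 0.42, 0.57 and 0.20 against -0.99, -0.92, -0.69 and -0.87. F lay nearer to D, E and G than to A to C for all 3. The other probes of Ifih1 and Ddx58 gave -0.47 and -0.79. Of 28 measured genes 20 were lower and 2 higher (all genes 22.2% and 25.7%), with and without F, with medians of -0.94 and -0.90. For 3 of the 28 no D to G array was well above background. Of the 20 members well above background on all 7 arrays 15 were lower and 2 higher with F, with a median of -0.97. Among all genes above background on all 7 arrays 22.8% were lower and 27.3% higher. Among the members that did not pass were Psmb9, an immunoproteasome subunit (0.03 ± 0.19, adjusted p = 0.915), and Tap1, a peptide transporter (-0.02 ± 0.12, adjusted p = 0.917). Members of the Oas and Ifit families are near-identical in part, and their probes may not tell them apart. Of leukocyte markers 12 of 20 could be measured, 3 higher and 4 lower in D to G, with list medians of -2.70 on each of A to C and of -2.74 to -2.49 on D to G. Their part in the interferon result was not tested.

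Defence and regenerative genes moved both ways. Of 19 measured defence genes 9 were lower and 4 higher (all genes 22.2% and 25.7%), 10 and 5 without F (26.9% and 31.9%). Duoxa2, the maturation factor of the peroxide-producing oxidase Duox2, lay at 2.31, 2.87 and 1.92 on A to C and between -0.30 and 0.28 on D to G, where it was not well above background, at least 3.1-fold lower in Cy3. Tnfaip3, an inhibitor of NF-kappaB signalling, lay at 0.48, 0.97 and 0.42 against -0.81, -0.72, -0.22 and -0.76. Ccl28, a mucosal chemokine, was higher in D to G, by 1.67 (adjusted p = 0.000824; 1.76 without F). Anxa1, a gene of fetal and regenerating epithelium, lay at -3.55, -3.85 and -3.90 against -6.25, -6.19, -5.79 and -5.81 (difference -2.24 ± 0.15, adjusted p = 6.16e-05; -2.32 without F; other probe -1.36). In the fetal and regenerative list 6 of 18 measured genes were lower and 3 higher, without F 8 and 4, with a median of -0.17, a share of lower genes not far above that over all genes. Of 14 Notch pathway genes 7 were lower and 2 higher, 7 and 4 without F. They included the ligand Dll1 (-1.22 ± 0.10, adjusted p = 0.000127; -1.27 without F) and Atoh1, the factor of the secretory lineage, which lay at 5.45, 4.73 and 5.31 against 3.62, 3.25, 3.83 and 3.29.

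In the ratio, enterocyte genes were called about as often as genes at large, but not in the single channels. Enpep, an aminopeptidase of the brush border, lay at 7.41, 7.95 and 7.61 on A to C and at 6.06, 6.10, 6.19 and 6.44 on D to G (difference -1.46 ± 0.15, adjusted p = 0.000329, and -1.46 without F), and Krt20 changed by -1.28 ± 0.16 (-1.40 without F). Alpi, intestinal alkaline phosphatase, was higher by 0.54 ± 0.09 (adjusted p = 0.00226), and Fabp2, the intestinal fatty acid binding protein, differed by 0.24 ± 0.15 (adjusted p = 0.236). Of 31 enterocyte genes 8 were higher and 9 lower with F (all genes 25.7% and 22.2%), 8 and 12 without it (31.9% and 26.9%), with medians of 0.01 and -0.02. In Cy3 alone 3 were higher and 16 lower (all genes 21.8% and 25.1%), with a median of -0.70. In the Cy5 reference 3 were higher and 17 lower (all genes 27.0% and 25.7%), with a median of -0.42. Of 23 cholesterol synthesis genes 8 were lower and none higher, 9 and none without F, among them Sqle (-1.08 ± 0.08, adjusted p = 9.1e-05; -1.09 without F). Among goblet genes 9 of 21 were lower and 5 higher with and without F, and Gcnt3, a mucin glycosyltransferase, lay at 6.42, 6.02 and 6.08 against 4.02, 4.18, 4.85 and 4.39. Muc2, the main secreted mucin, differed by -0.06 ± 0.12 (adjusted p = 0.681). Of 16 measured Paneth cell genes 4 were higher and 4 lower with F, 5 and 6 without it, with medians of -0.40 and -0.16. Among them Lyz1 was higher by 0.79 ± 0.22 (adjusted p = 0.0203), with a difference of 0.99 without F, and its near-identical relative Lyz2 may be read by the same probe. Nupr1 was lower, at -0.92 ± 0.14 (adjusted p = 0.00176). Tuft cell genes moved both ways: Gnat3, the taste G protein, was not well above background on D to G and at least 2.03-fold lower in Cy3, and Alox5 was at least 3.24-fold higher in Cy3.

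Letter F shared some differences of its set and not others. Over all genes vehicles A to C correlated with each other at 0.985 to 0.994, D, E and G at 0.992 to 0.995, F with A to C at 0.94 to 0.943 and F with D, E and G at 0.956 to 0.965. A to C against D, E and G gave 0.894 to 0.916. Of 1937 genes at least 2-fold higher in D, E and G than in A to C, F was nearer to the mean of A to C in 1149 (59.3%). Of 901 genes lower by that much it was so in 175 (19.4%). The median SD between arrays was 0.116 in A to C, 0.15 in D to G and 0.092 in D, E and G.

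**Figure D3:**
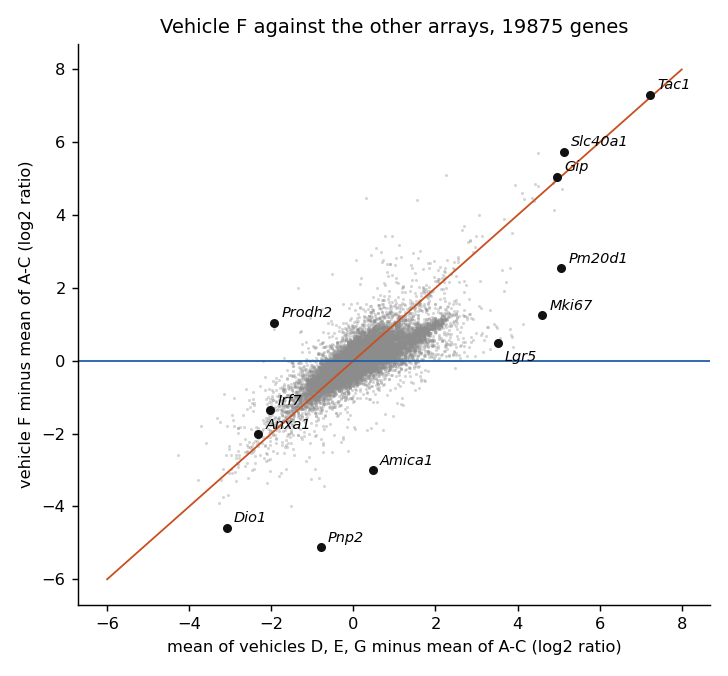
For each of 19875 genes, the mean of vehicles D, E and G minus the mean of A to C (horizontal axis, log2 ratio) and vehicle F minus the mean of A to C (vertical axis). The orange line marks F equal to D, E and G and the blue line F equal to A to C; Tac1 and Gip lie on the orange line, Lgr5 near the blue line, and Pnp2 and Amica1 lie below both.

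Some genes set F apart from all other vehicle arrays; they were chosen for that departure, so their values are a description. Pnp2, a purine nucleoside phosphorylase, lay at 6.69, 6.66 and 6.50 on A to C, at 5.79, 5.76 and 5.89 on D, E and G and at 1.49 on F. F was low for this gene on its other arrays too, at 1.58 with compound 6 and 1.53 after withdrawal, where D, E and G lay at 5.2 to 5.39 and at 6.10 to 6.31. Pnp2 has a close neighbour of like sequence, Pnp, so the probe is uncertain as to the gene. Amica1 (Jaml in RefSeq), an adhesion molecule, lay at 0.66 on vehicle F and at -0.17 on both other F arrays, against 3.37 to 4.19 on all D, E and G arrays of the 3 groups. Prodh2, a hydroxyproline dehydrogenase, was highest on vehicle F, at 3.64, against 0.55 to 0.73 on D, E and G and 2.17 to 3.00 on A to C. Rbp7, a retinol-binding protein, lay at 0.83 on F, between 0.28 and 0.74 on A to C and at 3.59 to 4.05 on D, E and G. Across treatments, then, the low Pnp2 and Amica1 values went with the letter F and not with the vehicle group.

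The other arrays of the same letters show whether the set differences were seen outside the vehicle group, though the treatments differ between the sets. They were scanned on the same day and scanner as the vehicles of their set, so they cannot tell scans from cultures. On the 6 other A to C arrays Tac1 lay between -0.32 and -0.13 and on the 8 other D to G arrays between 6.91 and 7.46. Gip lay between 0.01 and 0.17 against 5.19 and 5.45, and Slc40a1 between -0.47 and 0.99 against 4.63 and 5.78. Lgr5 did not hold apart, with 0.18 to 0.77 on A to C arrays against 0.79 to 1.40 with compound 6 and 0.72 to 0.80 after withdrawal. In Tac1, Gip and Slc40a1 all A to C arrays thus lay apart from all D to G arrays, while the high Lgr5 was seen on vehicles D, E and G. Only the vehicle was present in both sets, so no set difference could be taken within another treatment. Myc after withdrawal lay at -3.37 to -3.14, below vehicles A to C. The mitosis list had medians of -3.57 to -2.30 with compound 6 and of -3.84 to -2.71 after withdrawal, in each case lowest on F, and -3.84 to -3.69 on the 6 other A to C arrays. The interferon list lay between -1.72 and -1.20 on the 8 other D to G arrays and between -0.71 and -0.31 on the other A to C arrays. Of the 9513 calls 98.3% had the same sign in these other arrays, as had 85.3% of all genes.

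**Figure D4:**
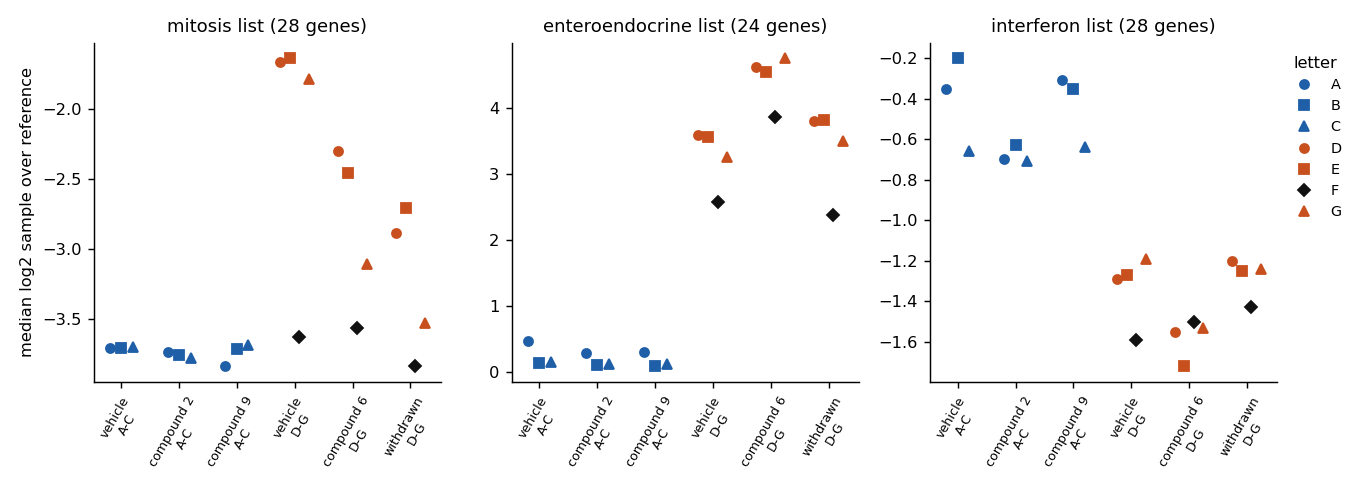
Median log2 sample over reference (vertical axes) of the mitosis, enteroendocrine and interferon lists on all 21 arrays, grouped by treatment and set (horizontal axes; A to C blue, D, E and G orange, F black). In the mitosis panel the A to C arrays lie at -3.84 to -3.69 and vehicles D, E and G at -1.79 to -1.64; in the enteroendocrine panel every A to C array lies at 0.47 or below and every D to G array at 2.37 or above.

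The Cy5 channel carried the same reference RNA on all arrays. In this channel alone 10481 genes (52.7%) passed, 5367 higher (27.0%) and 5114 lower (25.7%) in D to G, and 9634 (48.5%) without F. The differences were smaller than in the ratio, with a median size of 0.168 log2 and 150 genes higher and 69 lower by 2-fold or more. The Cy3 channel alone gave 9331 calls (46.9%), 4333 higher (21.8%) and 4998 lower (25.1%). Of the ratio calls 6286 were called in Cy3 in the same direction and 203 in the opposite one. Of 2370 ratio calls of at least 2-fold, Cy3 went the same way in 2363, and in 2150 (90.7%) Cy5 differed by less than 0.5 log2. The ratio holds the Cy3 signal of the same spots, so its agreement with Cy3 is no separate support. The median Cy5 size over all genes, 0.168, also lay under 0.5, and the share over all genes was not computed.

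For some genes with a large difference in sample signal the reference channel moved with the sample channel. Chga in Cy3 lay at 6.63, 6.38 and 6.56 (log2 signal) on A to C and at 14.19, 14.75, 14.03 and 14.50 on D to G, and in Cy5 at 6.35, 6.25 and 6.37 against 10.78, 11.02, 10.16 and 10.68. The difference was 7.84 in Cy3, 4.34 in Cy5 and 4.39 in the ratio, so the ratio of this gene is smaller than the change of its sample signal. Gip, Cck and S100g differed likewise, by 7.21, 7.95 and 8.09 in Cy3 and by 3.46, 4.15 and 3.28 in Cy5. Adh6a, an alcohol dehydrogenase, was lower by 7.71 in Cy3, 5.03 in Cy5 and 2.88 in the ratio, and Agilent's own ratio had it higher, by 0.74. Dmbt1, a secreted mucosal glycoprotein, differed by 6.68 in Cy3 and 5.93 in Cy5, and Syt10, a synaptotagmin, by 4.29 and 4.35, which left 0.04 in the ratio. Tac1, Slc40a1 and Mki67 differed in Cy5 by 0.41, 0.16 and -0.15 only. Of 237 genes that differed by 2 log2 or more in Cy3, Cy5 had the same sign in 206 and differed by 1 log2 or more that way in 53. Across genes, which are not independent replicates, the correlation of the Cy3 and Cy5 differences was 0.11 for 560 genes with a mean log2 ratio under -3 and 0.8 for 975 genes with one over 3. The cause was not tested.

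**Figure D5:**
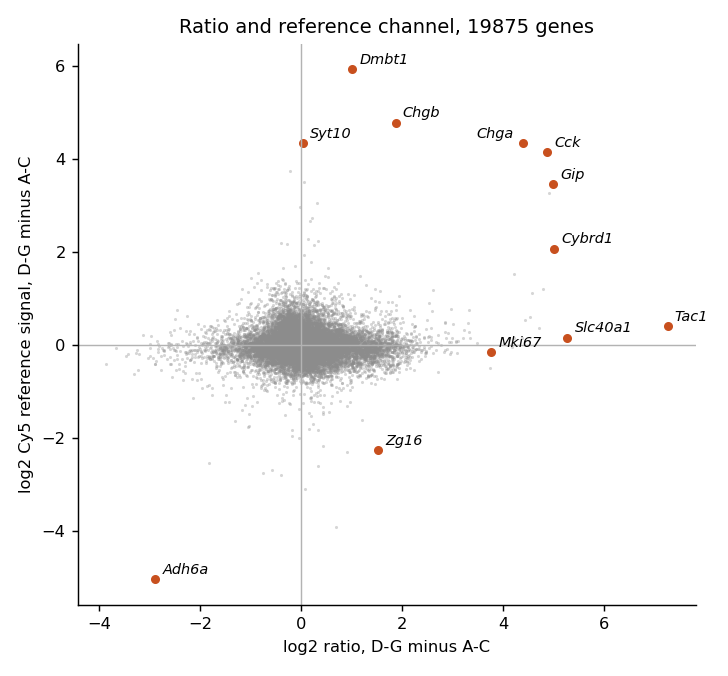
Difference of the log2 ratio (horizontal axis) and of the log2 Cy5 reference signal (vertical axis), D to G minus A to C, for 19875 genes, with 12 genes named. Tac1, Slc40a1 and Mki67 lie near 0 on the vertical axis, while Chga, Cck and Gip lie at 3.46 to 4.34 and Adh6a at -5.03.

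Some directions depended on the scaling and are given as such. The glycolysis, oxidative phosphorylation, hypoxia and histone lists had medians of 0.61, 0.44, 0.18 and 0.28 in the ratio but of -0.04, -0.19, -0.25 and -0.09 in Cy3 alone. Vil1, the microvillus protein villin, was higher by 0.62 ± 0.11 in the ratio (adjusted p = 0.00298) and lower by 0.76 in Cy3. Zg16, a goblet cell lectin, was higher by 1.53 ± 0.14 in the ratio and lower by 1.37 in Cy3. The share of calls that were higher in D to G was 53.6% in the ratio, 46.4% in Cy3 alone, 42.8% with Agilent's ratio, 41% with the deposited series matrix and 30.6% with median centring. Median centring and the series matrix moved the median difference of all genes from 0.01 to -0.13 and -0.11. Markers of other cell types were few. Of 13 measured fibroblast genes 3 were higher and 3 lower (all genes 25.7% and 22.2%). Their list medians were -5.05 to -4.75 on A to C and -5.10 to -4.74 on D to G. Of 7 endothelial genes 1 was higher and 4 lower, and of 7 neural and muscle genes 1 was higher and 2 lower. The Y-linked gene Eif2s3y lay at 2.39 to 2.48 on A to C and 2.16 to 2.21 on D to G.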

How the data were processed

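Dual-channel Agilent arrays were read from the deposited scanner files, which give mean and background intensity of both channels; per the file headers the scans were quantified by Agilent Feature Extraction, version 10.7.3.1, on mm9 coordinates. The deposited log10 ratio (reference over sample, per the file headers after Agilent's own dye normalization) and the authors' deposited series matrix of log2 ratios (sample over reference, as a comparison with the scanner values showed) served as alternatives; no label or header names the tool behind the matrix. The number of arrays limits the precision.

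In R 4.3.3 with limma 3.58.1, intensities were corrected with normexp (offset 50) and normalised within arrays by loess without control spots. Non-uniform spots were set missing and spots of a probe averaged. Of 55681 probes, 27209 were kept because Agilent marked their Cy3 signal as well above background in 3 or more of the 7 vehicle arrays, and the brightest probe stood for each gene (19875 genes, 5239 with more than 1 probe, 13174 matched to RefSeq by accession). For single channels, log2 signals were quantile-normalised. The model was lmFit and eBayes on the 7 arrays, two-sided, Benjamini-Hochberg threshold 0.05. On data simulated for this comparison over 19875 genes the fit was tested first. Figures used Python 3.11.15 and matplotlib 3.10.9.

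The 41 lists, their members and the arrays compared were chosen with earlier results of these data known. Named genes were the 12 higher and 12 lower with the largest difference (passing with and without F, no overlap between the sets, no clone names), up to 3 passing members of each list with the smallest adjusted p, a panel of 23 genes, 8 genes with the largest departure of F where D, E and G lay within 0.5, and the 4 genes with the largest Cy5 difference; list members outside this rule are given as examples of their list and were named after their values were seen. Alternatives were each array left out, all 21 arrays fitted, slide as a random block, array weights, offset 0, Agilent's ratio, Cy3 alone, median centring, the series matrix, other probe filters, mean of probes and an adjusted p of 0.01. Bounds with Cy3 scaled by quantiles were added after seeing the data. The values of 1 named gene are not reported here.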

Additional observations from a re-analysis of the deposited data

Results flagged for a closer look

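In the set of 4 vehicles D to G, 207 values (list medians and named genes) were examined for an array set apart from the other 3 by Dixon's criterion, which chance meets in about 1 in 20 such sets. It was met by 44, of which 39 were F, 3 D, 1 E and 1 G; the genes chosen for F's departure are among them. For lists, F stood apart with medians of -3.63 for mitosis, -2.99 for DNA replication, -1.95 for ribosome biogenesis, -1.39 for heat shock, -0.28 for Wnt targets and -0.16 for stem cell genes. In each of these F was lower than D, E and G.

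Among replication and mitosis genes F lay apart at -5.45 (Mki67), -4.95 (Rrm2), -4.94 (Hist1h1b), -4.93 (Uhrf1), -4.46 (Mcm4), -4.34 (Ccnb1), -2.11 (Kif23), -1.99 (Cdc6), -1.85 (Cdca8) and -1.30 (Mcm10). Growth and chaperone genes with F apart were Tcof1 (-2.25), Hspd1 (-1.80), Wdr12 (-1.69) and Hspe1 (-1.35). Stem cell genes with F apart were Lrig1 (0.05), Lgr5 (1.00) and Ascl2 (3.29), where F was lower than D, E and G. For Msi1 (3.57) F was higher than the 3.19 to 3.25 of D, E and G. Metabolic and stress genes with F apart were Ndufs1 (0.75), Uqcrc2 (1.38), Acadm (2.01) and Sesn2 (-0.37), with F lower, and Pfkfb4 (3.43), with F higher than D, E and G.

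F also stood apart for Pnp2 (1.49), Amica1 (0.66), Rbp7 (0.83), Prodh2 (3.64), Nkx6-3 (5.77), Itfg3 (3.75), Vmn1r65 (-0.86), Ltc4s (2.30), Tnfaip3 (-0.22) and Btc (1.70). The other arrays that stood apart were D for the Notch list (1.33), the fibroblast list (-4.74) and Eif2s3y (2.21), E for the fatty acid oxidation list (2.28) and G for Sqle (0.71). The causes were not tested.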

How the results depend on the processing

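No paired analysis was possible because the vehicle sets share no letter. Of 152 passing named genes, 96 kept call and direction under each of the 20 other settings in which they could be tested. Not every gene could be tested in each. With probes above background on all 7 arrays, 138 of the 166 named genes were present, and the series matrix lacked some too. Leaving out each array in turn gave 7123 to 11682 passing genes, 3856 to 6334 higher and 3267 to 5348 lower. Median differences then ranged over 1.35 to 2.09 for enteroendocrine genes, -1.17 to -0.71 for interferon, 1.32 to 1.81 for mitosis, 1.11 to 1.53 for replication, 1.15 to 1.57 for ribosome biogenesis, 1.25 to 1.68 for ribosomal proteins and -0.04 to 0.04 for enterocyte genes; hypoxia ranged over -0.04 (without B) to 0.29. At an adjusted p under 0.01, 5701 genes passed, 3120 higher and 2581 lower. The other fits gave 11221 (all 21 arrays), 12228 (the same without every F), 12599 (array weights) and 12841 genes (slide as a random block, correlation -0.643, which rests on the slides that held 2 vehicles each).

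With Agilent's ratio the medians were 2.65 (enteroendocrine), -1.52 (interferon), -0.21 (histones), -0.06 (glycolysis), -0.03 (hypoxia) and 0.21 (Paneth), with Dmbt1 at -0.52 and Adh6a at 0.74. In Cy3 alone they were 2.29 (enteroendocrine), 0.57 (ribosomal proteins), -0.70 (enterocyte), -0.19 (oxidative phosphorylation), -0.25 (hypoxia), -0.09 (histones) and -0.04 (glycolysis), with Vil1 at -0.76, Epcam at -0.23, Zg16 at -1.37, Tpi1 at -0.02, Cyp2c65 at -0.15, and Cpt2 and Apoc3 both at -0.18. With offset 0 they were 2.26 (enteroendocrine), -1.22 (interferon), 0.93 (ribosomal proteins), -0.15 (enterocyte), -0.14 (histones), -0.07 (hypoxia), -0.01 (oxidative phosphorylation) and 0 (glycolysis).

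Median centring left 2632 genes higher, and medians of 0.83 (ribosome biogenesis), 0.42 (ribosomal proteins), -0.54 (enterocyte), -0.45 (oxidative phosphorylation), -0.49 (glycolysis), -0.38 (hypoxia), -0.25 (fatty acid oxidation), -0.12 (NRF2 targets), -0.08 (histones), -0.06 (heat shock) and -0.01 (proximal and distal). Among the single genes that turned were Ephb3 (-0.17), Uqcrc2 (-0.03), Tpi1 (-0.23), Pkm2 (-0.27), Acadm (-0.08), Cpt2 (-0.13), Apoc3 (-0.16), Defa1 (-0.23) and Epcam (-0.03). The series matrix gave 3318 genes higher, and medians of -1.47 (interferon), 0.78 (ribosomal proteins), -0.33 (histones), -0.14 (oxidative phosphorylation), -0.19 (glycolysis and hypoxia), -0.02 (fatty acid oxidation) and 0.09 (Paneth), with Dmbt1 at -0.71, Adh6a at 1.61 and Chgb at -0.03. The enteroendocrine median was 1.08 with probes above background on all 7 arrays and 1.33 with no filter. With the mean of probes Cpt2 was -0.09, Apoc3 -0.15 and H2-Q10 2.54. In Cy5, 14015 genes passed over all 21 arrays, 11821 with slide as a random block and 8449 with median centring. The causes were not tested.

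Scan day, scanner and slide coincide with the sets, so no fit can tell them from the cultures. Genes below background in a set have a bound only.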
